A study of Mus musculus and Homo sapiens
Mus musculus with 14 samples.

Results

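Transcripts of 10 genes that encode neuronal calcium-binding proteins were followed through the mouse retina. The genes were taken by symbol: Calb1, Calb2, Pvalb and Scgn, which encode calbindin, calretinin, parvalbumin and secretagogin, Cabp1, Cabp2, Cabp4 and Cabp5, which encode calcium-binding proteins related to calmodulin, and Hpca and Vsnl1, which encode hippocalcin and visinin-like protein. They are 10 of the 24460 genes listed for the retinal layers and of the 18415 genes listed for the amacrine cells. All 10 symbols were found in both tables, and each gene identifier matched the annotation used here. The study made RNA libraries by Light-Seq, in which RNA is copied to cDNA inside a fixed section and cDNA strands in regions chosen under the microscope receive a DNA barcode by light-directed crosslinking. All retinal tissue came from wild-type CD1 mice in the third postnatal week, and no group carried a transgene, a deletion or a drug treatment. In 4 sections of 1 animal, barcodes were written into the outer nuclear layer (ONL, photoreceptor cell bodies), the bipolar cell layer (BCL) and the ganglion cell layer (GCL). In 5 further sections, the cell bodies of amacrine cells that stained for tyrosine hydroxylase (TH+), a handful per section, received 1 barcode, and a larger number of neighbouring TH- amacrine cells received another. The methods speak of a single source animal for the Light-Seq experiments without naming these sections. The libraries of a section are therefore paired, and sections are technical replicates, so the p-values below measure the spread between sections and not between animals.

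Calcium that enters a neuron is bound by proteins with EF-hand motifs. Buffers such as calbindin, calretinin and parvalbumin take up the ion and shape the size and duration of its rise, whereas sensors such as the CaBPs, hippocalcin and visinin-like protein change shape on binding it and act on channels, membranes and enzymes. In the retina, antibodies to these proteins are classical labels of neuron types: calbindin for horizontal cells, calretinin for amacrine and ganglion cells, parvalbumin for subsets of ganglion cells in the mouse, and secretagogin and CaBP5 for types of bipolar cells.

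The libraries held 310228 to 801105 UMIs in the ONL, 193869 to 208437 in the BCL, 585655 to 785013 in the GCL, 134394 to 200344 in the TH- cells and 30317 to 87449 in the TH+ cells, where a UMI (unique molecular identifier) counts 1 cDNA molecule. Levels are given as CPM, the UMIs of a gene per 1000000 UMIs of its library. A count of 3 UMIs corresponded to 3.74 to 15.5 CPM in the layer libraries and to 34.3 to 98.95 CPM in the TH+ libraries, so that low levels are not resolved in the latter. The summed level of 9 rod markers was highest in the ONL (64666 ± 6151 CPM, SD, n = 4), that of 8 bipolar markers in the BCL (7128 ± 445) and that of 9 ganglion cell markers in the GCL (5103 ± 225). The GCL libraries also held amacrine markers at 1137 ± 84.2 CPM, and the BCL libraries held horizontal cell markers at 272 ± 31.6 CPM and Müller glia markers at 7299 ± 384 CPM, so each layer is a mixture of types. In such libraries, fewer cells of a type and less RNA per cell cannot be told apart. In mouse 3T3 fibroblasts, a cell line barcoded in 3 wells of the same series, none of the 10 genes had a UMI among 540880, which allows a level of up to 5.55 CPM by counting error alone.

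Together the 10 genes made up 466 ± 52.1 CPM in the ONL, 1234 ± 130 CPM in the BCL and 2557 ± 199 CPM in the GCL (SD, n = 4 sections each). The lowest GCL section, at 2295 CPM, lay above the highest BCL section, at 1360 CPM, and the lowest BCL section, at 1052 CPM, lay above the highest ONL section, at 519 CPM. Calb2 alone gave means of 1729 CPM in the GCL and 123 CPM in the BCL. The other genes together were lower in the GCL than in the BCL, so the order of these 2 layers came from Calb2. In the amacrine libraries, which were made and sequenced separately, the sum was 999.8 ± 163 CPM in TH- cells and 833 ± 102 CPM in TH+ cells (n = 5 each). No test was made on these sums, because the genes were chosen with results known.

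**Figure D1:**
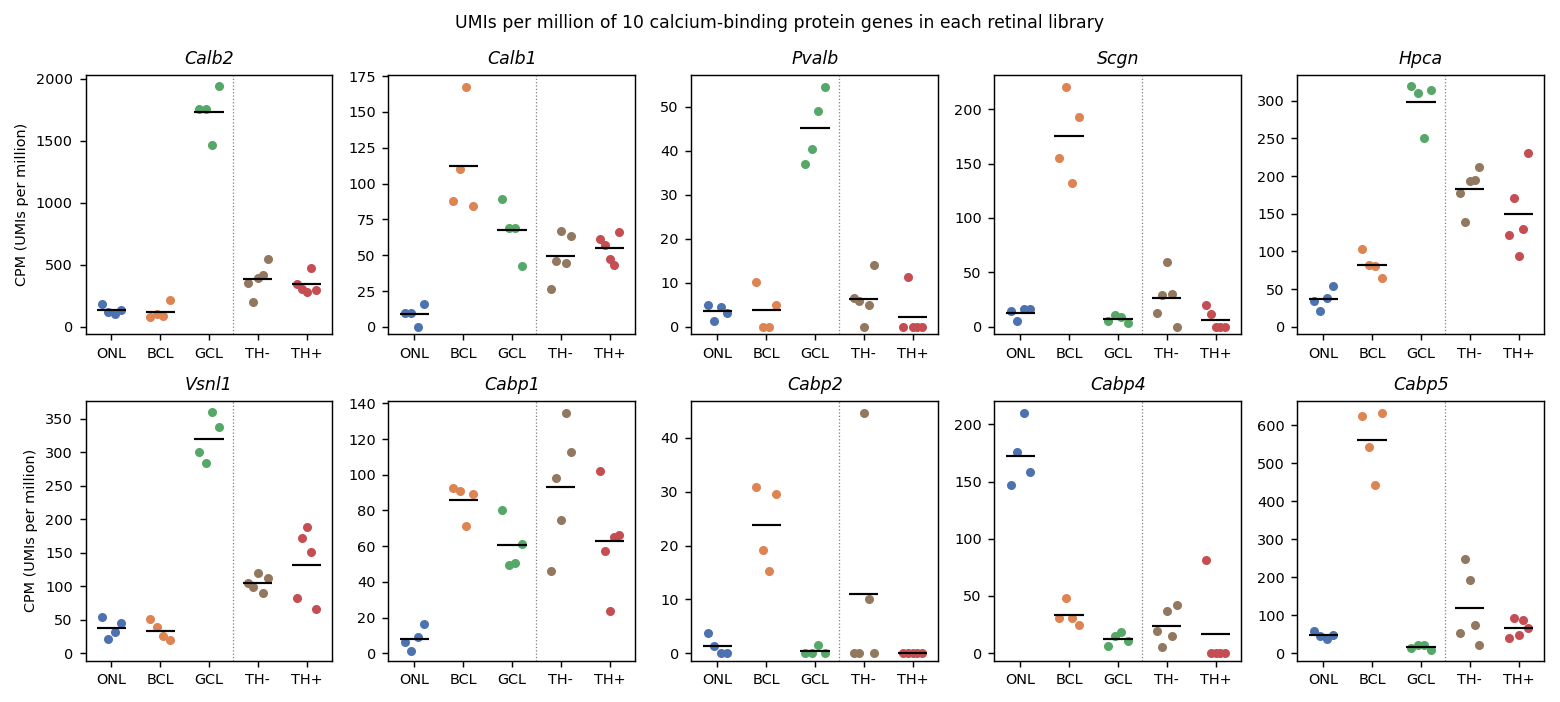
CPM (UMIs per 1000000 UMIs of the library, linear axis from 0, one scale per gene) of each gene in every library of the ONL, BCL and GCL (4 sections) and of TH- and TH+ amacrine cells (5 sections). Dots are libraries and lines are group means, and the dotted line parts the 2 separately sequenced experiments. Calb2, Pvalb, Hpca and Vsnl1 are highest in the GCL, Cabp5, Scgn and Cabp2 in the BCL, and Cabp4 in the ONL.

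Each pair of layers was compared with edgeR's quasi-likelihood test in 1 fit over the 12 layer libraries, and a gene was called when its Benjamini-Hochberg adjusted p over all 11324 genes tested was under 0.05. All 10 genes passed the low-count filter, Cabp2 only through its BCL libraries and Pvalb only through its GCL libraries, so their differences from those layers are given below as a description, with no p, and stay out of the counts here. Between the ONL and the BCL 6 of the other 8 were called, 1 with the higher level in the ONL and 5 with it in the BCL, where 36.7% of all genes tested were called, 18.5% with more in the ONL and 18.2% with more in the BCL. For ONL against GCL 7 of the 8 were called, 2 toward the ONL and 5 toward the GCL, against 61.5% of all genes, 29.3% and 32.2% by direction. Between the BCL and the GCL 6 of the 8 were called, 3 in each direction, against 36.5% of all genes, 16.1% higher in the BCL and 20.4% higher in the GCL. The sections of the 2 layers did not overlap for 6, 7 and 6 of the 8 genes, as for 33.2%, 54.8% and 36.1% of all genes tested. The median absolute log2 fold change of the 8 genes was 2.93, 2.94 and 2.71 in the 3 comparisons, beside 0.66, 0.93 and 0.61 for all genes tested.

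**Figure D2:**
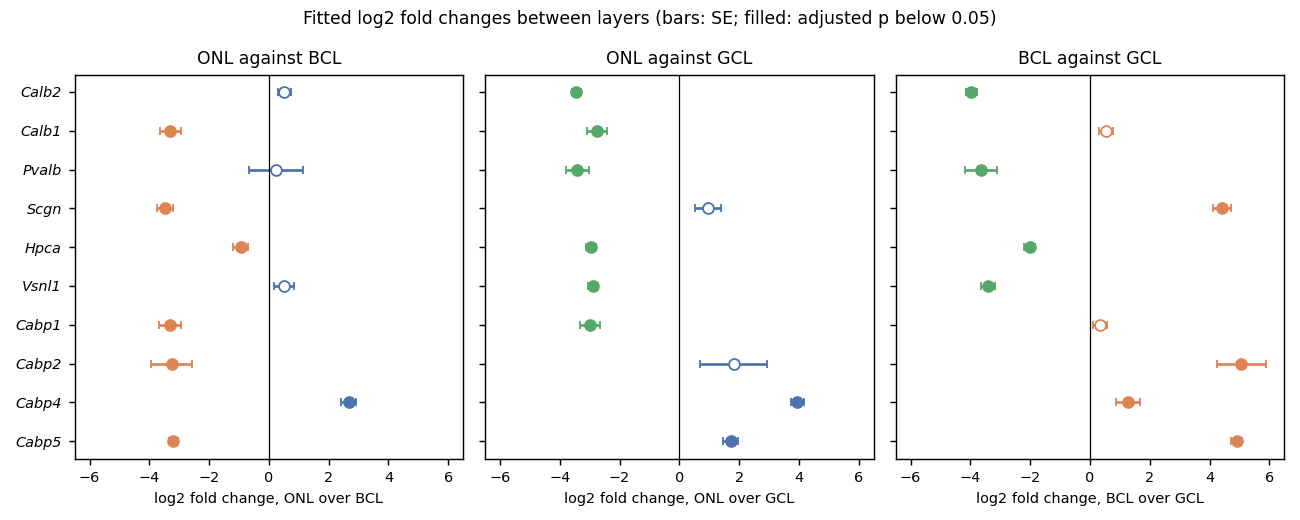
Fitted log2 fold changes of the 10 genes between pairs of layers (x axis, positive when higher in the first layer named), with bars for the standard error and 4 sections per layer. Filled points have an adjusted p under 0.05, coloured by the layer with the higher level, and open points do not. The 7 open points are Calb2, Pvalb and Vsnl1 in ONL against BCL, Scgn and Cabp2 in ONL against GCL, and Calb1 and Cabp1 in BCL against GCL. Filled points of Cabp2 and Pvalb were filled by the same rule, but their p is not used as a test. Each of these genes passed the low-count filter only through the layer where it is high.

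Among the buffers, Calb2 was high in the GCL. Its level there was 1754, 1755, 1465 and 1941 CPM in sections 1 to 4, against 186, 122, 100.4 and 139 CPM in the ONL and 82.5, 106, 86.4 and 218 CPM in the BCL. The lowest GCL section was thus several times above the highest section of either other layer. The gene was 10.99-fold higher in the GCL than in the ONL (log2 fold change -3.46 ± 0.15 SE for ONL over GCL, adjusted p = 9.00e-27, edgeR) and 15.7-fold higher than in the BCL (-3.97 ± 0.18, adjusted p = 2.80e-25). Calb2 lies on chr8:110864128-110894881 of GRCm39, on the minus strand.

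The ONL and the BCL held Calb2 at like levels, with means of 137 ± 36.4 and 123 ± 63.8 CPM. The fitted difference was 0.51 ± 0.22 in favour of the ONL with an adjusted p of 0.0643, and with the section as a block it was 0.53 with an adjusted p of 0.0266. The size moved with the sections. It was 0.99 without section 4 (adjusted p = 0.000802), whose BCL library held 218 CPM where the other 3 held at most 106, and 0.13 without section 1 (adjusted p = 0.727).

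Pvalb was also high in the GCL, from far fewer molecules. The GCL sections held 36.9, 40.5, 49.2 and 54.6 CPM, and no ONL section exceeded 4.99 CPM. In the BCL its UMIs numbered 3 in all, with 2 sections at 0, against 120 in the GCL, a ratio of 11.9 (exact 95% interval 3.98 to 58.6, for counting error only). The fitted log2 values were -3.41 ± 0.39 for ONL over GCL and -3.65 ± 0.54 for BCL over GCL, and the second was -4.79 without section 1, which held 2 of the 3 BCL molecules. ONL and BCL could not be separated at this depth (0.23 ± 0.91, adjusted p = 0.882), and the direction of that difference changed without section 3.

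Calb1 departed from Calb2 and Pvalb. It was low in the ONL, where the sections held 9.99, 9.68, 0 and 16.1 CPM, and present in both inner layers, at 87.7, 110.3, 168 and 84.0 CPM in the BCL and 89.2, 68.9, 69.2 and 42.7 CPM in the GCL. All BCL and GCL sections lay above all ONL sections, whereas BCL and GCL overlapped. The gene was 9.86-fold higher in the BCL than in the ONL (log2 -3.30 ± 0.36 for ONL over BCL, adjusted p = 2.59e-11) and 6.78-fold higher in the GCL than in the ONL (-2.76 ± 0.32, adjusted p = 9.58e-11). Between the BCL and the GCL the difference of 0.54 ± 0.24 in favour of the BCL missed the threshold (adjusted p = 0.0671, 95% interval 0.07 to 1.013). It passed with the section as a block (0.56, adjusted p = 0.0434) or without section 1 (0.80, adjusted p = 0.0150). With another section left out it fell as low as 0.27, with an adjusted p of up to 0.465. The horizontal cell markers, a cell type that calbindin antibodies label, summed to 242 to 305 CPM in the BCL sections, to 16.5 to 81.5 CPM in the GCL and to 15.2 to 20.5 CPM in the ONL. Their part in the Calb1 level was not tested.

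Scgn, the gene of secretagogin, was a gene of the BCL. Its sections held 155, 221, 132 and 193 CPM there, 14.98, 5.53, 15.98 and 16.1 CPM in the ONL and 5.10, 10.5, 9.22 and 3.41 CPM in the GCL. It was 11.1-fold higher in the BCL than in the ONL (log2 -3.47 ± 0.27 for ONL over BCL, adjusted p = 8.29e-16) and 21.4-fold higher than in the GCL (4.42 ± 0.29, adjusted p = 1.01e-18). The ONL and the GCL, both low, differed by 0.95 ± 0.43 with an adjusted p of 0.0534, and by 1.49 with an adjusted p of 0.00766 without section 2, whose ONL library had the lowest level. With another section left out the difference fell as low as 0.62, with an adjusted p of up to 0.326.

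The CaBP genes parted over the layers, and no pair of them shared an order of mean levels except Cabp2 and Cabp5. Cabp5 encodes a protein found in rod bipolar cells and some types of cone bipolar cells. Its BCL sections held 624, 542, 442 and 633 CPM, its ONL sections 58.7, 44.3, 36.5 and 48.4 CPM and its GCL sections 14.0, 21.0, 21.5 and 8.54 CPM, with no overlap between any 2 layers. It was 9.16-fold higher in the BCL than in the ONL (log2 -3.19 ± 0.16 for ONL over BCL, adjusted p = 5.59e-23) and 30.0-fold higher than in the GCL (4.91 ± 0.19, adjusted p = 2.10e-28). It was also 3.28-fold higher in the ONL than in the GCL (1.71 ± 0.26, adjusted p = 1.03e-07).

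Cabp2, which has a role in hearing through the calcium channels of inner hair cells, had few molecules. The BCL held 19 UMIs (30.95, 19.2, 15.2 and 29.7 CPM), the ONL 4 UMIs in 2 of its sections and the GCL 1 UMI. The ratio of the pooled levels was 13.5 for BCL to ONL (exact 95% interval 4.48 to 54.4) and 63.7 for BCL to GCL (10.1 to 2649), both for counting error only. The fitted log2 values were -3.25 ± 0.68 for ONL over BCL and 5.06 ± 0.81 for BCL over GCL, and under edgeR's default filter the gene is not tested. The sizes rest on single molecules: without section 1 the first was -4.202, and without section 3, which held the only GCL molecule, the second was 6.51. Between the ONL and the GCL the difference was not called (1.81 ± 1.13, adjusted p = 0.164). With each section left out it ran from 0.36 to 3.40, with adjusted p from 0.0385 to 0.858. The call came without section 3, where the GCL held no molecule.

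RefSeq promoter windows of 250 bases before the annotated start (GRCm38.p6, a different build from the coordinates above) were available for 7 of the 10 genes, in 13 windows, and not for Calb1, Calb2 and Cabp4. The core TAATCC, read on both strands (GGATTA on the other), is the site bound by the Otx and Crx homeodomain factors of photoreceptors and bipolar cells. It was found in windows of 3 genes, with 2 copies each in Cabp5 and in 1 window of Cabp2, and 1 copy in a window of Hpca. Cabp2 and Cabp5 were highest in the BCL and Hpca in the GCL, while Scgn and Cabp1, whose mean levels were also highest in the BCL, had no copy in their windows. The 2 windows with 2 copies are shown, each read along the strand of the gene, with the matches in capitals.

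Cabp5, chr7:13397905-13398154, plus strand: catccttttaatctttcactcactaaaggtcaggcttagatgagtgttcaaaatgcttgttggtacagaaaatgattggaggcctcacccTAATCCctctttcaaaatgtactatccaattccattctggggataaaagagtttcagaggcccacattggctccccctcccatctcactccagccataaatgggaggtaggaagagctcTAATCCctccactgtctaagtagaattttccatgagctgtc
Cabp2, chr19:4083269-4083518, plus strand: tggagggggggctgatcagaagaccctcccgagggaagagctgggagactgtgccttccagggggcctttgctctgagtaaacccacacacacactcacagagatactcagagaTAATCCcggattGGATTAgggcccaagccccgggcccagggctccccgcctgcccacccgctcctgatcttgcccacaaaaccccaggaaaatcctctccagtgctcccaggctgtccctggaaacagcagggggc

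In Cabp5 both copies run in the direction of the gene, and in Cabp2 the copies lie on opposite strands with 6 bases between them. Over all 32851 promoter windows, 6.25% held at least 1 copy and 0.295% held 2 or more. The other cores searched were TAATTA, in 4.84% of all windows and none of the 13, CAGCTG, in 13.0% and in 1 window of Hpca, and TATAAA, in 12.4% and none of the 13. A match of this kind describes the letters and does not show that a factor binds there.

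Cabp4 was the gene of the ONL. Its protein sits at photoreceptor terminals, where it modulates the calcium channel encoded by Cacna1f. The ONL sections held 147, 176, 210.0 and 158 CPM, the BCL sections 30.95, 48.0, 30.5 and 24.7 CPM and the GCL sections 6.37, 14.99, 18.4 and 10.2 CPM, with no overlap between layers. It was 6.36-fold higher in the ONL than in the BCL (log2 2.67 ± 0.24, adjusted p = 1.17e-13) and 15.3-fold higher than in the GCL (3.94 ± 0.21, adjusted p = 4.71e-23). The BCL was 2.41-fold above the GCL (1.27 ± 0.39, adjusted p = 0.00815), a call lost without section 1 (1.04, adjusted p = 0.0524) or section 2 (1.14, adjusted p = 0.0685). Cabp4 overlaps the gene Gpr152 on the opposite strand over 131 exon bases, 3.72% of its own exon length, and Gpr152 itself had 447 (ONL), 33 (BCL) and 41 (GCL) UMIs. The study's notes give default settings for the exon counting, under which featureCounts does not use strand and leaves a read on exons of 2 genes unassigned.

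Cabp1, the founding member of the CaBPs, followed Calb1 and not the other CaBP genes. Its level was 92.8, 91.2, 71.1 and 88.99 CPM in the BCL and 80.3, 49.5, 50.7 and 61.5 CPM in the GCL, against 6.24, 1.38, 9.13 and 16.1 CPM in the ONL. Every inner library was above every ONL library. It was 9.94-fold higher in the BCL than in the ONL (log2 -3.31 ± 0.37 for ONL over BCL, adjusted p = 7.61e-11) and 7.93-fold higher in the GCL than in the ONL (-2.99 ± 0.32, adjusted p = 1.11e-11). The BCL was above the GCL in 4 of 4 sections, but the difference was not called (0.33 ± 0.24, adjusted p = 0.303, 95% interval -0.15 to 0.80).

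The neuronal calcium sensors Hpca and Vsnl1 were both highest in the GCL. Hpca held 320, 310.2, 251 and 314 CPM in the GCL, 103, 81.6, 81.3 and 64.3 CPM in the BCL and 33.7, 20.7, 38.8 and 54.8 CPM in the ONL. It was 7.83-fold higher in the GCL than in the ONL (log2 -2.97 ± 0.17 for ONL over GCL, adjusted p = 2.60e-22) and 4.07-fold higher than in the BCL (-2.02 ± 0.18 for BCL over GCL, adjusted p = 6.63e-14). The BCL was 1.93-fold above the ONL (-0.95 ± 0.26 for ONL over BCL, adjusted p = 0.00293), and this call was lost without section 2 (-0.74, adjusted p = 0.0525).

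Vsnl1 held 301, 283, 360 and 338 CPM in the GCL, 51.6, 38.4, 25.4 and 19.8 CPM in the BCL and 53.7, 20.7, 32.0 and 45.1 CPM in the ONL. It was 7.48-fold higher in the GCL than in the ONL (log2 -2.90 ± 0.17 for ONL over GCL, adjusted p = 1.44e-21) and 10.6-fold higher than in the BCL (-3.40 ± 0.23 for BCL over GCL, adjusted p = 3.87e-18). Unlike Hpca, its level in the ONL and the BCL was not called different (0.50 ± 0.34, adjusted p = 0.272, 95% interval -0.18 to 1.18). Short stretches of both genes lie opposite another gene, 117 exon bases of Hpca opposite Tmem54 and 126 of Vsnl1 opposite Smc6. Tmem54 had no UMI in the layers and Smc6 had 62 (ONL), 30 (BCL) and 91 (GCL).

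Levels of different genes were set beside each other per exon length, as RPKM (CPM per kilobase of exon). Calb2 was the first of the 10 genes in the GCL, at 992 ± 113 RPKM and 73.9% ± 2.61 of the summed RPKM of the 10, followed by Vsnl1 (164 ± 17.8), Hpca (102 ± 11.1) and Pvalb (43.5 ± 7.76). The GCL ranges of these did not overlap between neighbours in that order. Pvalb thus ranked above Calb1 and Cabp1 in the GCL per length, although its CPM was below theirs. In the BCL, Cabp5 was first at 222 ± 35.1 RPKM, or 43.1% ± 2.61 of the sum, then Scgn (108 ± 24.3) and Calb2 (70.6 ± 36.6), whose spread between sections overlapped that of Scgn. In the ONL, Calb2 (78.4 ± 20.9, 40.1% ± 5.90) and Cabp4 (49.1 ± 7.81, 26.1% ± 7.27) led, their ranges over the sections overlapping, with Vsnl1 (19.4 ± 7.41) and Cabp5 (18.6 ± 3.65) not separated from each other.

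**Figure D3:**
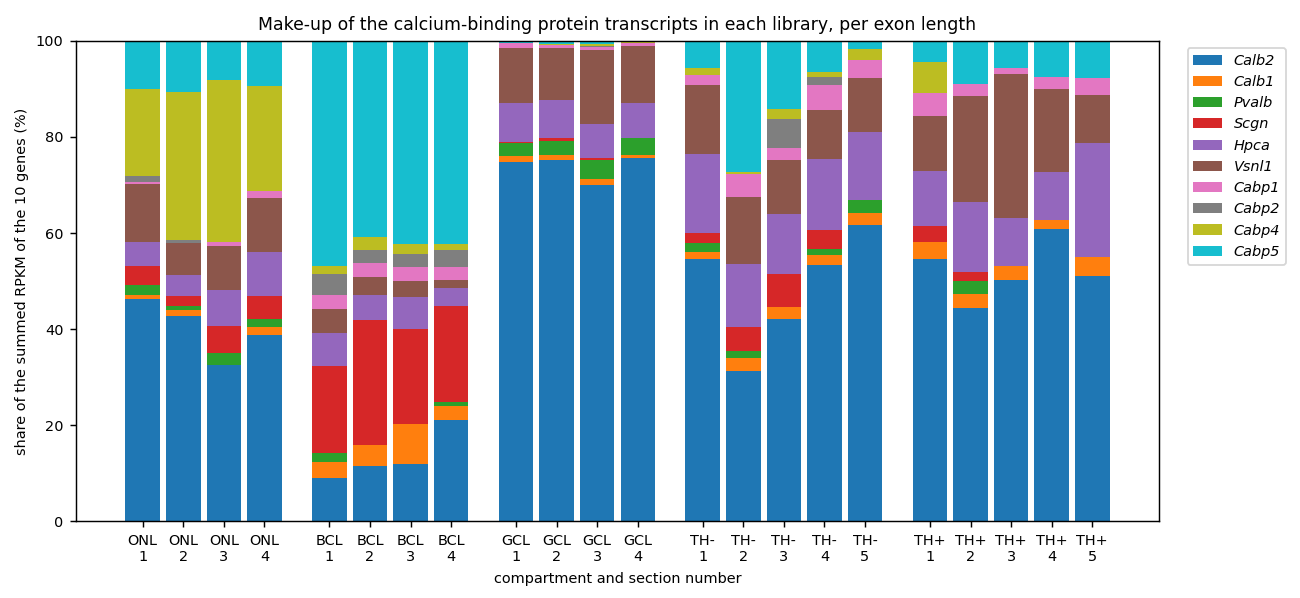
Share of each gene in the summed RPKM of the 10 genes (y axis, percent) in every library of the ONL, BCL and GCL (sections 1 to 4) and of TH- and TH+ amacrine cells (sections 1 to 5). Each bar is 1 library. Calb2 takes 70.0% to 75.5% of the GCL bars and Cabp5 takes 40.9% to 46.9% of the BCL bars.

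The level outside the layer of the highest mean was then set beside that of cell type markers with the same home layer. Calb2 was in the ONL at 7.88% ± 1.82 and in the BCL at 6.96% ± 2.89 of its GCL level (mean and SD over 4 sections), and the summed ganglion cell markers were at 7.49% ± 2.83 and 7.49% ± 1.71. Pvalb was at 8.03% and 9.24%. Vsnl1, at 11.9% ± 4.75 and 10.9% ± 5.37, and Hpca, at 12.5% ± 4.86 and 27.9% ± 5.71, had means above each of the 9 ganglion markers. The means of these markers reached 11.2% ± 5.35 in the ONL and 8.55% ± 2.40 in the BCL. Only Hpca in the BCL, at 20.5% or more in each section, lay above every section of every ganglion marker. The 8 amacrine markers, whose summed level was also highest in the GCL among the layers, were at 9.13% to 134% in the ONL and at 21.1% to 119% in the BCL (median 28.7%), and Hpca lay within the range of both. Among the genes of the BCL, Cabp5 was at 8.37% ± 0.74 in the ONL and 3.08% ± 1.58 in the GCL, and Scgn at 8.16% and 4.20%, beside 9.79% and 5.28% for the summed bipolar markers. The median of the 8 single bipolar markers was 6.64% in the ONL and 2.77% in the GCL, below the sums and below both genes, and their range was 4.99% to 29.9% and 2.19% to 20.4%. Calb1 and Cabp1, at 64.1% ± 26.6 and 70.3% ± 13.2 of their BCL level in the GCL, exceeded each of the 8 bipolar markers, whose highest was Prkca at 20.4%. Cabp4 was at 19.6% ± 5.86 in the BCL and 7.03% ± 2.08 in the GCL, beside 23.7% and 9.04% for the summed rod markers. The low levels of Calb2, Pvalb, Cabp5, Scgn and Cabp4 outside their layer lay thus within or below the range of single markers of that layer's main cell type, except Pvalb in the BCL (9.24%), which rests on 3 molecules. Which cells these molecules came from was not tested.

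Amacrine cells were compared within a separate fit over 10 libraries and 6021 genes. Th, the gene of tyrosine hydroxylase and the check of the labels, was at 303 to 660 CPM in the 5 TH+ libraries and 11.6 to 49.9 CPM in the 5 TH- libraries (fitted log2 fold change 4.22 ± 0.32). This is a description with no test, since the cells were picked by their TH stain and Th met the low-count level in 5 TH+ libraries and 1 TH- library. Of the 10 genes, 6 passed the filter, which asked for the low-count level in 5 libraries. Calb1 and Cabp5 met it in 5 TH+ and 4 TH- libraries, and Cabp1 in 4 and 5, so each passed only with the libraries of 1 group. Their fold changes and intervals below are a description. None of the 6 was called, where 0.83% of all genes tested were called, 0.747% higher in TH+ cells and 0.083% higher in TH- cells. That share was 2.46% with the section as a block (148 genes in place of 50), and 29 to 73 genes were called with a section left out, the fewest without section 3. None of the 6 had an unadjusted p under 0.05 in edgeR, and DESeq2 called none. The TH+ and TH- libraries overlapped for each of the 10 genes, while 2.28% of all genes tested did not overlap. The median absolute log2 fold change of the 6 was 0.36, beside 0.29 for all genes tested.

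Calb2 was the leading gene per length in both populations, at 196 ± 45.0 RPKM in TH+ and 220 ± 73.0 RPKM in TH- cells (n = 5). Its CPM was 347, 309, 282, 476 and 297 in the TH+ libraries and 355, 197, 394, 419 and 549.7 in the TH- libraries of sections 1 to 5. The populations could not be told apart (log2 fold change for TH+ over TH- -0.16 ± 0.23, adjusted p = 0.921), and the 95% interval of the difference ran from -0.62 to 0.30. The mean of Calb2 lay between its BCL and GCL means in both populations, but TH- section 2, at 197 CPM, lay below BCL section 4, at 218 CPM. The experiments were sequenced separately and this was not tested.

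Hpca held 94.1 to 231 CPM in TH+ and 139 to 211 CPM in TH- libraries (-0.30 ± 0.28, 95% interval -0.85 to 0.25). Vsnl1 held 66.0 to 188 CPM in TH+ and 89.8 to 119 CPM in TH- libraries (0.41 ± 0.31, -0.21 to 1.04). Calb1 averaged 54.9 CPM in TH+ and 49.6 CPM in TH- cells, with 43.2 to 66.0 CPM in TH+ and 26.3 to 67.0 CPM in TH- libraries (0.16 ± 0.46, -0.75 to 1.07). Cabp1 was at 62.7 ± 28.0 CPM in TH+ and 93.3 ± 34.3 CPM in TH- cells and was lower in TH+ cells in 4 of 5 sections, but its interval of -1.41 to 0.23 included no change. These intervals leave room for differences of up to about 2-fold for Hpca, Vsnl1 and Calb1.

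**Figure D4:**
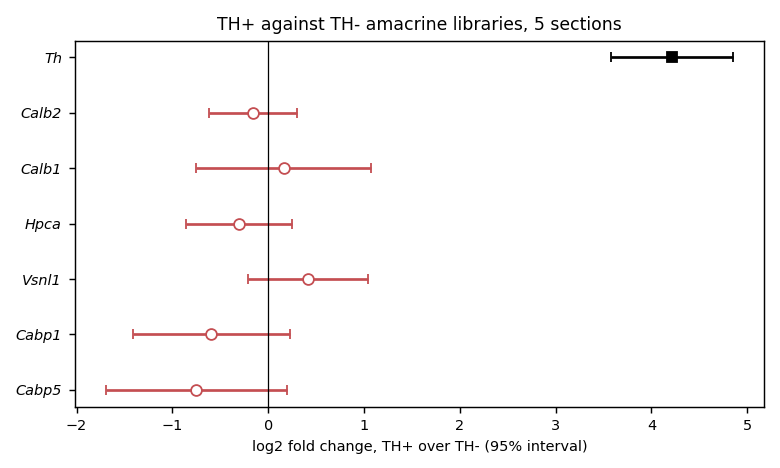
Fitted log2 fold change of TH+ over TH- amacrine libraries (x axis) with 95% intervals, over 5 sections. The fit has no section term, so the intervals do not use the pairing of libraries. Th, at 4.22, is the check of the stain (square), shown with no test, and the 6 genes that passed the filter are shown as open circles. All 6 intervals include 0.

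Cabp5, a gene of bipolar cells, varied widely between the TH- libraries. Sections 1 to 5 held 52.6, 248.8, 193, 74.9 and 21.1 CPM, against 40.8, 91.5, 47.1, 86.5 and 66.0 CPM in the TH+ libraries. The summed bipolar markers in the same TH- libraries were 1078, 2245, 2731, 1308 and 782 CPM, and the 2 sections with the highest Cabp5 were those with the highest bipolar markers. In TH+ libraries the bipolar markers summed to 462 to 1521 CPM, and in the BCL to 6738 to 7647 CPM. The log2 fold change was -0.75 ± 0.47 (95% interval -1.69 to 0.19). The part of bipolar RNA in the Cabp5 level of amacrine libraries was not tested.

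The other 4 genes did not pass the filter. Scgn had 2 UMIs in TH+ and 21 in TH- libraries, a ratio of 3.35 for TH- to TH+ with an exact 95% interval of 0.818 to 29.4 for counting error. Cabp4 had 4 and 18 UMIs (ratio 1.43, 0.472 to 5.83), and all 4 of the TH+ molecules came from section 1. The rod markers summed to 29607 ± 9342 CPM in TH+ and 17249 ± 5590 CPM in TH- libraries, and their part in the Cabp4 level was not tested. Pvalb had 1 and 5 UMIs (1.59, 0.178 to 75.4). Cabp2 had none in the TH+ libraries, which allows up to 11.7 CPM over the group, and 8 in the TH- libraries, 6 of them in section 3. For these genes a difference was not detectable at this depth.

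A list of 24 further calcium sensors and buffers was read in the same fits, and 20 were tested between layers. Of these, Necab3, Efhd1 and S100b passed the low-count filter only through 1 layer and are left out of the counts. Among the other 17, called genes numbered 3 toward the ONL and 8 toward the BCL when these layers were compared, 2 and 14 for ONL against GCL, and 4 and 9 for BCL against GCL, where the shares over all genes were 36.7%, 61.5% and 36.5%. The median log2 fold change of the 17 was -0.51, -2.20 and -1.33, beside 0.09, 0.00 and -0.02 for all genes. The ONL genes were led by Rcvrn, the gene of recoverin, which acts on rhodopsin kinase, at 2711 ± 236 (ONL), 817 ± 155 (BCL) and 285 ± 95.4 (GCL) CPM, and by Guca1b, a guanylate cyclase activator of photoreceptors, at 638 ± 57.1, 116 ± 50.2 and 44.7 ± 24.7 CPM. Rcvrn was 10.6-fold and Guca1b 15.9-fold higher in the ONL than in the GCL (adjusted p = 5.87e-27 and 1.46e-26). The third gene called toward the ONL against the BCL was Hpcal1 (2.96-fold, adjusted p = 1.66e-06). Efhd1 held 16 ONL, 34 BCL and 3 GCL molecules, given with no test.

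The genes of the list that were higher in the GCL were led by Necab2, Caln1 and Calm3 against the BCL and by Calm3, Caln1 and Necab2 against the ONL. Necab2 was at 208 ± 27.6 CPM in the GCL, 14.8 ± 8.80 in the BCL and 17.0 ± 7.23 in the ONL (15.3-fold over the BCL, adjusted p = 6.98e-17). Caln1, the gene of a calneuron, was at 308 ± 59.4, 37.4 ± 15.6 and 29.4 ± 12.9 CPM (9.20-fold over the BCL, adjusted p = 8.93e-17). Calm3, 1 of the genes that encode calmodulin, was at 1466 ± 112, 585 ± 66.9 and 282 ± 36.2 CPM (2.82-fold over the BCL, adjusted p = 1.31e-15). Genes higher in the BCL than in the ONL included Hpcal4 (5.39-fold, adjusted p = 2.41e-13) and Ncald (4.76-fold, adjusted p = 4.88e-11). Against the GCL, the genes higher in the BCL included Rcvrn (2.55-fold, adjusted p = 2.12e-10) and Hpcal4 (1.86-fold, adjusted p = 4.71e-05).

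In amacrine cells 17 of the 24 were tested. Necab2 was at 165 ± 74.9 CPM in TH+ and 31.0 ± 19.4 CPM in TH- cells, from 39 and 25 UMIs (fitted log2 2.27 ± 0.41). It met the low-count level in 5 TH+ and 2 TH- libraries, so it was tested only through the TH+ libraries, and its difference is a description with no p. None of the other 16 was called in edgeR or in DESeq2, beside 0.83% of all genes in edgeR. Hpcal1 met the level in 5 TH+ and 3 TH- libraries, Kcnip2 in 3 and 5, and Calm2 in 4 and 5. These genes also passed only with the libraries of 1 group, so no difference of theirs is read here. With the section as a block Rcvrn and Guca1b were called, beside 2.46% of all genes under the same block. Both were higher in TH+ cells, in libraries where the rod markers were also higher.

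A list of 8 genes of channels and channel subunits was also read, which includes genes not known as targets of the 10 proteins. All 8 were tested, and 5, 8 and 8 were called in the 3 layer comparisons, beside 36.7%, 61.5% and 36.5% of all genes. Between the ONL and the BCL 2 were called toward the ONL, Cacnb2 (3.32-fold, adjusted p = 2.45e-15) and Cacna1f (1.78-fold, adjusted p = 5.61e-06), and 3 toward the BCL, led by Trpm1 (12.9-fold, adjusted p = 4.07e-27) and Cacna1d (4.83-fold, adjusted p = 6.21e-10). Cacna1f, the channel subunit that CaBP4 modulates, was thus also highest in the ONL, the layer of Cabp4. Its lead there over the BCL was 1.78-fold, beside 6.36-fold for Cabp4. It was also 6.02-fold higher in the BCL than in the GCL (adjusted p = 2.59e-16, edgeR). Against the GCL it was 10.7-fold higher in the ONL (adjusted p = 3.44e-25), beside Cacnb2 at 6.03-fold (adjusted p = 1.02e-24), 2 of 4 called in that direction. The 4 higher in the GCL than in the ONL were led by Cacna1a (9.26-fold, adjusted p = 1.47e-25) and Cacna1b (10.05-fold, adjusted p = 3.77e-21). Between the BCL and the GCL 5 were higher in the BCL, led by Trpm1, the mGluR6-coupled cation channel of ON bipolar cells (39.5-fold, adjusted p = 5.30e-32), and Cacna2d4 (9.65-fold, adjusted p = 1.79e-22), and 3 in the GCL, led by Cacna1a (7.60-fold, adjusted p = 4.88e-20) and Cacna1b (4.84-fold, adjusted p = 6.55e-13). Between TH+ and TH- cells none of the 8 was called in edgeR, beside 0.83% of all genes, and none had an unadjusted p under 0.05.

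The genes most like each member were found by Pearson correlation of log2 CPM over the 12 layer libraries, among the 11324 tested genes and for the 9 members with at least 100 UMIs. The points share sections and layers, so these values mostly rank genes by their layer and carry no test. Cabp5 was most like Lrtm1 and Trpm1 (r = 0.995 and 0.990), both in the bipolar marker list. Scgn was most like Gabrr1 and Neurod4 (0.989 and 0.986). Calb2 was most like Necab2, Nefl and Etl4 (0.988 each), with Nefl a neurofilament gene of ganglion cells. Vsnl1 was most like Syn2, Kcnq3 and Rab6a (0.990, 0.988 and 0.987), the genes like Hpca included Slc36a4 and Ttc28 (0.985 and 0.982), and Pvalb was most like Gng4, Trarg1 and Srgap1 (0.984, 0.977 and 0.974). Cabp4 was most like Rp1, a photoreceptor axoneme gene, Sp2 and Frmpd2 (0.993, 0.991 and 0.991). Calb1 was most like Ppp1r1a, Npr2 and Cul7 (0.971, 0.970 and 0.956) and Cabp1 most like Abr, Sorbs3 and Bcr (0.981, 0.976 and 0.973). Among the members themselves, Scgn and Cabp5 were the most alike pair (0.973), ahead of Cabp2 and Cabp5 (0.951) and Pvalb and Vsnl1 (0.949), while Cabp1 and Cabp4 were the least alike (-0.874).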

How the data were processed

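The deposited counts are whole numbers of distinct UMIs per gene without normalization. The authors extracted UMIs and barcodes using UMI-tools 1.1.1, aligned reads to mm39 by STAR 2.7.9a, removed multimapping reads, counted exons of GENCODE vM27 genes with featureCounts, deduplicated UMIs by gene, separated libraries by exact barcode and dropped 2 ribosomal RNA genes. Removing multimapping reads lowers genes with near-identical copies. The deposited columns were used as they stand, and RPKM used the authors' exon lengths.

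Tests used edgeR 4.0.16 (R 4.3.3) with TMM scaling, a low-count filter (filterByExpr, minimum count 3 and minimum total 10), and 1 quasi-likelihood fit each for 12 layer and 10 amacrine libraries, tested on simulated data. Standard errors are the fold change divided by the square root of F. The main fits had no section term, and libraries of a section are paired by origin. Their residuals correlated at 0.0116 to 0.0493 in 12 layer pairs and at 0.0287 to 0.257 in 5 amacrine pairs. Alternatives were DESeq2 1.42.0, RLE size factors, other filters, a section block, no mitochondrially encoded genes and each section left out. Ratios of low counts have exact conditional intervals. Coordinates come from a later GENCODE release on GRCm39. The members, marker lists, gene lists and motifs were chosen with earlier results of these data known. All 10 members are named. Of the other lists, up to 3 sensors and 2 channel genes with the smallest adjusted p per direction are named. Efhd1, Rcvrn, Guca1b, Hpcal1, Kcnip2, Calm2 and Cacna1f are also named under other counts. The most alike genes are the 3 with the highest correlation (prior count 2). Some genes that fall under these rules are not reported here. TPM and log2 values deposited by the authors for the mixed culture were not used. Tables were handled with python 3.11.15, pandas 2.3.3, numpy 2.4.6, scipy 1.17.1 and matplotlib 3.10.9.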

Additional observations from a re-analysis of the deposited data

Results flagged for a closer look

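Of 49 groups of 4 or 5 member values, 7 had a library far from the others of its group by Dixon's criterion. Chance gives this in about 1 of 20 groups of normally distributed values. That rate does not hold for counts near 0, where any molecule in an otherwise empty group is flagged by construction. The 7 flags are therefore not read as an excess. No explanation was tested for any of them. Calb2 in the BCL was 217.5 CPM in section 4, with the next section at 106 CPM. Scgn in the ONL was 5.53 CPM in section 2, with the next section at 14.98 CPM. Hpca in the GCL was 251 CPM in section 3, with the next at 310.2 CPM, which leaves the GCL above both other layers. The other 4 rest on few molecules: Cabp2 at 1.54 CPM in GCL section 3, Pvalb at 11.4 CPM in TH+ section 2 and Cabp4 at 81.7 CPM in TH+ section 1, where every other library of the group was at 0, and Cabp2 at 44.6 CPM in TH- section 3, where the next was 9.98 CPM.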

How the results depend on the processing

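Differences of Cabp2 from the BCL and of Pvalb from the GCL are left out of these counts. Of 188 member values under alternatives that kept every section, 182 kept their direction and their side of the threshold, and of 134 with a section left out 124 did. Of the 8 members other than Cabp2 and Pvalb, 5 to 7 were called (ONL against BCL), 7 to 8 (ONL against GCL) and 5 to 6 (BCL against GCL) with a section left out, and the members called stayed at 0 for TH+ against TH-. Calls outside those given above: Calb2 in ONL against BCL passed without the low-count filter (0.54, adjusted p = 0.0384), Scgn in ONL against GCL passed with the default filter (0.98, adjusted p = 0.0443), and Calb1 in BCL against GCL passed with RLE size factors (0.57, adjusted p = 0.04999) and with the default filter (0.59, adjusted p = 0.0452). Directions changed for Pvalb in ONL against BCL without section 3 (range with each section left out -0.22 to 0.93) and, for TH+ over TH-, for Calb1 without section 1 (-0.0501 to 0.31) and Calb2 without section 5 (-0.28 to 0.0365), none of them called. With the section as a block, 148 genes were called between TH+ and TH- in place of 50, and 3 of the other sensors in place of 1, with Necab2, which passed the filter only through TH+ libraries, in both counts. Without section 3 or 5 the first count was 29 or 31, within a range of 29 to 73 over all sections left out. The block changed no other member call than the 2 given above. Leaving out mitochondrially encoded genes raised the GCL sum to 2811 CPM. By CPM in place of RPKM the rank of 7 members changed in the ONL, 5 in the BCL, 5 in the GCL, 7 in TH- and 4 in TH+ libraries. RLE size factors moved the median of all genes by -0.10 at most. Cabp2 between layers and Calb1, Cabp1 and Cabp5 between TH+ and TH- were not tested under the default filter. The depth of the TH+ libraries limits the amacrine comparison, and 1 animal limits the layers. The causes of these changes were not tested.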
